A study of Mus musculus with 9 samples.

Results

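The 10 genes described here encode the GDNF signalling system of the testis and transcription factors that mark or maintain spermatogonial stem cells: Gdnf, Gfra1, Ret, Etv5, Bcl6b, Id4, Lhx1, Eomes, T and Pax7. They were taken from a gene expression table of mouse testis by name, which found all 10 genes on 12 of the table's 29661 rows, out of 23386 genes in all. The series asks how the RNA-binding protein LIN28A acts on transcripts of male germ cells. It holds 3 RNA-seq libraries from Lin28a knockout testis and 3 from wild-type testis, all of strain C57BL/6 at postnatal day 10, and 3 LIN28A CLIP samples of the same tissue and age, which were not analysed here. The sample titles call the knockout a cKO, and the labels give neither a driver for it nor the number of animals behind a library.

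The table gives 1 FPKM value (fragments scaled to the length of the transcript and the number of mapped fragments) for each group, in columns named case and control. They were read as the knockout and the wild-type libraries from these names alone. No value per library was analysed, so no SD or n stands beside any FPKM value below and the depth is unknown. Lin28a itself was at 23.4 FPKM in the case column and 8.82 FPKM in the control column, with a q-value of 0.00191 listed in the authors' deposited table. The targeted gene was thus higher in the column read as its knockout, which goes against the label, so all directions given here are those of the named columns.

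GDNF is a growth factor for germ cells that somatic cells of the testis, mainly Sertoli and peritubular myoid cells, release. It binds the co-receptor GFRA1 on the surface of the most primitive spermatogonia, and the pair activates the receptor tyrosine kinase RET, which signals through SRC family kinases, PI3K and AKT, and RAS and ERK. In cultured mouse spermatogonia this signal maintains self-renewal and keeps up a set of transcription factor genes that includes Etv5, Bcl6b, Lhx1, Id4, Eomes and T, while Pax7 marks a rare spermatogonial population in the adult mouse.

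At day 10 the GDNF receptors and Etv5, the best expressed member, stood at nearly the same level in both columns. The ligand was somewhat higher and Id4 somewhat lower in the case column. Gdnf was at 6.07 FPKM in the case column and 4.41 FPKM in the control column, and Id4 at 4.94 and 6.61 FPKM in the same order. None of these differences passed the authors' test: 0 of the 8 tested member rows had q under 0.05, where 0.0514% of all 13629 tested rows did, and 0 had an unadjusted p under 0.05, where 1.28% of all tested rows did. The smallest p among the member rows, that of Gdnf, was 0.199 in the authors' deposited table. The 4 other member rows have the status NOTEST, that is, no completed test.

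**Figure D1:**
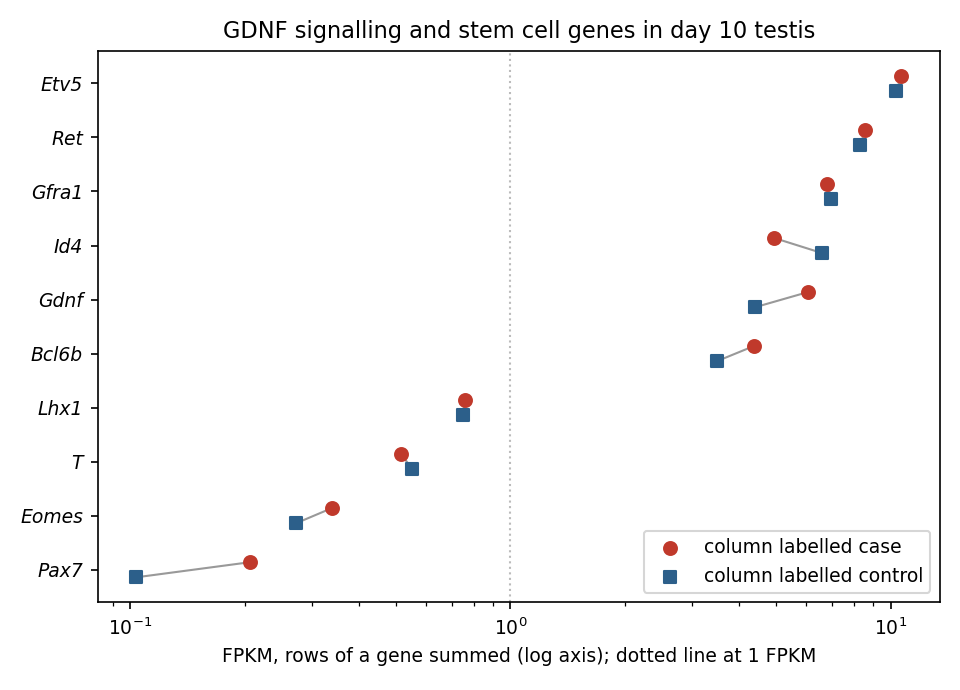
FPKM of each of the 10 genes, summed over its rows, in the case column (circles) and the control column (squares), on a log axis ordered by the control level. Etv5, Ret and Gfra1 lead in both columns, Id4 and Gdnf trade places, and the lowest 4 genes lie below 1 FPKM.

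The order of the levels was Etv5, Ret, Gfra1, Gdnf, Id4, Bcl6b, Lhx1, T, Eomes and Pax7 in the case column. In the control column the order was the same except that Id4 stood above Gdnf. With no spread between libraries, it cannot be said which neighbours in this order differ. Of the 10 genes, 6 had a mean of at least 1 FPKM, and each of these was above 1 FPKM in both columns. Of these 6 genes, 4 were higher and 2 lower in the case column, where 60.8% of all 12663 genes analysed were higher, and quantile normalization of the columns gave 3 higher and 3 lower because Etv5 came to -0.003. Rescaling the case column by the median of ratios put 50.1% of all genes higher, in place of 60.8%. The levels formed separate ranges: the 6 genes lay between 3.49 and 10.7 FPKM, and the 4 others at or below 0.757 FPKM. Etv5 exceeded 70.6% of all genes in the case column and 70.7% in the control column, so even the best expressed member was of moderate level in whole testis.

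An error for single rows can be had from the deposited test. In all 13586 tested rows with both values above 0, the deposited p-value equalled the two-sided normal p of the deposited test statistic to within 1e-04. The statistic was opposite in sign to the deposited log2 ratio in all 13586 rows, so only the sizes of both were used. If the size of the statistic is that of the log2 ratio divided by its standard error (SE), the SE follows from the 2 values. The median SE implied in this way was 0.43 on the log2 scale over the 7052 tested rows with a mean of 1 to 12 FPKM. Intervals below are 95% intervals from this SE. They inherit how the authors' test treated the replicate libraries, which no label or header states. Of all 13629 tested rows, 1.28% had an unadjusted p under 0.05, below the share that this threshold passes when nothing differs. The test may thus be conservative and the intervals too wide.

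Gdnf (NM_010275; mm10 chromosome 15, 7811011 to 7837575), the ligand, had the largest difference among the 6 genes above 1 FPKM with the columns as deposited, while Id4 had the largest under both rescalings (-0.39 and -0.40 on the log2(FPKM + 1) scale, beside 0.35 and 0.34 for Gdnf). The log2 ratio of its FPKM, case over control, was 0.46 with an implied SE of 0.36, or 1.38-fold, and its interval ran from 0.845-fold to 2.24-fold. Its p was 0.199, and its q was far above 0.05, in the authors' deposited table. On the scale of log2(FPKM + 1), which shrinks differences of low genes, Gdnf was 0.39 higher in the case column, and 2.05% of the 12663 genes with a mean of at least 1 FPKM had a higher difference. The ratio of Gdnf to Ret FPKM was 0.707 in the case column and 0.530 in the control column, and that of Gdnf to Gfra1 was 0.890 and 0.631.

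RefSeq gives the mouse Gdnf gene alternative start sites, and the windows from 250 bases before to 50 bases after each are shown because they differ in their core promoter letters. On build GRCm38.p6, plus strand, they are chr15:7809798-7810097 and chr15:7813477-7813776. Capitals mark TATAAA, searched on both strands.
Gdnf, upstream start: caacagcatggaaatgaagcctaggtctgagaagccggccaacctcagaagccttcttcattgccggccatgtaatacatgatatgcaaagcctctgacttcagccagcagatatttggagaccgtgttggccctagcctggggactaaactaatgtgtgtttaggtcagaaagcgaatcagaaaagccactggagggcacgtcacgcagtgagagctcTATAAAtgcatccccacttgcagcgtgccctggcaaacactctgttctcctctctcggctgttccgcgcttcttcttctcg
Gdnf, downstream start: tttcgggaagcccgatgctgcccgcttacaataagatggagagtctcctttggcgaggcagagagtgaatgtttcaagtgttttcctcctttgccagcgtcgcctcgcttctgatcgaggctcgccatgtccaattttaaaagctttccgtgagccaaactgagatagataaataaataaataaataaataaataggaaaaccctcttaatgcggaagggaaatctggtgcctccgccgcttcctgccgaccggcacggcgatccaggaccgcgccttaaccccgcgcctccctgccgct
The upstream window holds TATAAA beginning 31 bases before its start site, and the downstream window holds none. Of 32851 mouse promoter windows of 300 bases, 13.6% hold these letters. The upstream window has 11 CpG and the downstream window 22, at the same G and C content of 51.7%. The deposited row of Gdnf begins 963 bases after the upstream start site and 2716 bases before the downstream one, so the single FPKM value does not tell the start sites apart. A match of letters is a description of the window and not a bound site.

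The receptors stood at similar FPKM in both columns. Gfra1 (NM_010279; chromosome 19, 58236692 to 58454466), the co-receptor that binds GDNF, was at 6.83 FPKM in the case column and 6.99 FPKM in the control column. Its log2 ratio was -0.03 with an implied SE of 0.34, the interval ran from 0.617-fold to 1.55-fold, and p was 0.920 in the authors' deposited table.

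Ret (chromosome 6, 118151748 to 118197744), the signalling receptor, was at 8.59 FPKM in the case column and 8.32 FPKM in the control column when its rows were summed. These rows are transcripts of the same span and pointed in opposite directions. NM_001080780 was at 7.19 FPKM in the case column and 6.27 FPKM in the control column, a log2 ratio of 0.20 with an implied SE of 0.28 (p = 0.483 per the authors' deposited table). NM_009050 was at 1.40 FPKM in the case column and 2.04 FPKM in the control column, a log2 ratio of -0.55 with an implied SE of 0.52 (p = 0.289 per the authors' deposited table). NM_009050 thus made up 16.3% of Ret FPKM in the case column and 24.6% in the control column. The rows' log2 ratios lay 0.75 apart, which was not tested because the rows share reads. Of the 815 genes with exactly 2 rows that were both tested, 55.8% had rows in opposite directions and 20.4% had a gap at least as wide. The split between transcripts of a gene is an estimate of the authors' program. Ret makes proteins with a short or a long tail from alternative ends, and the files do not say which row is which.

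**Figure D2:**
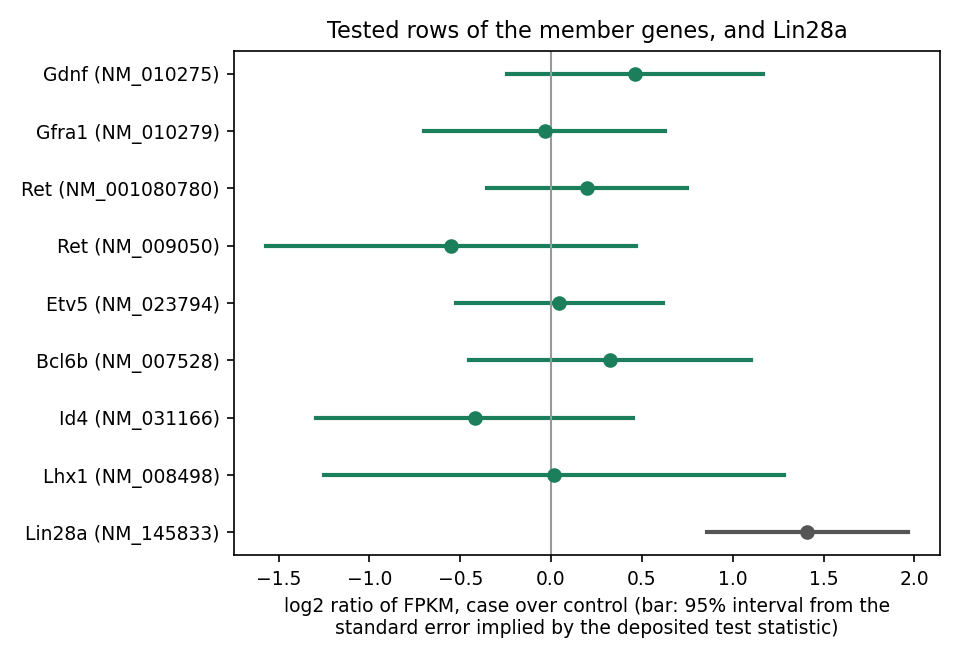
Log2 ratio of FPKM, case over control, of each tested member row and of Lin28a (points), with the 95% interval from the SE implied by the deposited test statistic (bars). All 8 member rows have intervals that include 0, and that of Lin28a runs from 0.86 to 1.96.

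Of the genes that GDNF keeps up in cultured spermatogonia, Etv5 was level and Bcl6b somewhat higher. Etv5 (NM_023794; chromosome 16, 22381313 to 22439570), an ETS transcription factor also needed in Sertoli cells, was at 10.7 FPKM in the case column and 10.4 FPKM in the control column. Its log2 ratio was 0.05 with an implied SE of 0.29 and an interval from 0.695-fold to 1.53-fold (p = 0.876 in the authors' deposited table). Bcl6b (NM_007528; chromosome 11, 70224127 to 70229798), a transcriptional repressor related to BCL6, was at 4.37 FPKM in the case column and 3.49 FPKM in the control column. That was 1.25-fold, with an interval from 0.730-fold to 2.14-fold and a p of 0.415 in the authors' deposited table. In bulk testis, fewer cells of a type and less RNA per cell cannot be told apart.

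Id4 (NM_031166; chromosome 13, 48261427 to 48264036) encodes an inhibitor of DNA binding that pairs with bHLH transcription factors and blocks them, and its expression marks spermatogonia with stem cell activity in the mouse. It was at 4.94 FPKM in the case column and 6.61 FPKM in the control column. The log2 ratio was -0.42 with an implied SE of 0.44, the interval ran from 0.408-fold to 1.37-fold, and p was 0.345 in the authors' deposited table. On the scale of log2(FPKM + 1) it was 0.36 lower in the case column (-0.36), and 2.27% of the 12663 genes had a lower difference. The ratio of Id4 to Etv5 FPKM was 0.462 in the case column and 0.638 in the control column.

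The 3 other genes of the Id family were lower in the case column by a like amount, and all 4 Id genes stayed lower under both rescalings of the columns. Id1 was at 22.2 FPKM in the case column and 28.1 FPKM in the control column, Id2 at 38.7 and 51.9 FPKM, and Id3 at 37.1 and 49.5 FPKM. Their log2 ratios were -0.34, -0.42 and -0.42, beside -0.42 for Id4. Each had a single row, and none passed the authors' test, with p = 0.345 for Id1, 0.136 for Id2 and 0.179 for Id3 in the authors' deposited table. On the scale of log2(FPKM + 1), 39.2% of the genes analysed were lower in the case column, and 2.84% had a lower difference than Id1, 1.71% than Id2 and 1.76% than Id3. Id4 made up 4.80% of the summed FPKM of the family in the case column and 4.85% in the control column. The E protein genes, whose products the ID proteins bind, were not all lower: Tcf3 was at 48.8 FPKM in both columns, Tcf4 at 12.8 and 10.9 FPKM and Tcf12 at 37.8 and 37.0 FPKM, and after median-of-ratios rescaling 1 of these 3, Tcf4, was higher. No row of these 3 genes had a completed test in the authors' deposited table.

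**Figure D3:**
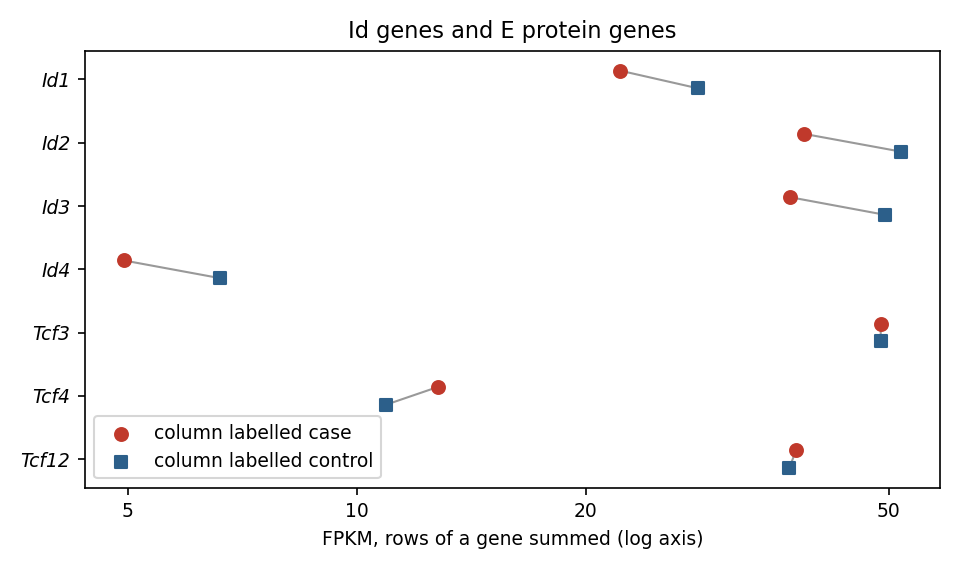
FPKM of the 4 Id genes and 3 E protein genes, rows of a gene summed, in the case column (circles) and the control column (squares), on a log axis. The Id genes are all lower in the case column, by 0.34 to 0.42 on the log2 scale, and no row of them passed the authors' test.

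Promoter windows of Id2, Id3 and Id4 are shown because all 4 Id genes stood in the same direction, and Id1 had no entry. On GRCm38.p6 they are chr12:25096043-25096342 on the minus strand, chr4:136143572-136143871 on the plus strand and chr13:48260866-48261165 on the plus strand. Capitals mark CCAAT on either strand, which reads ATTGG on the other.
Id2: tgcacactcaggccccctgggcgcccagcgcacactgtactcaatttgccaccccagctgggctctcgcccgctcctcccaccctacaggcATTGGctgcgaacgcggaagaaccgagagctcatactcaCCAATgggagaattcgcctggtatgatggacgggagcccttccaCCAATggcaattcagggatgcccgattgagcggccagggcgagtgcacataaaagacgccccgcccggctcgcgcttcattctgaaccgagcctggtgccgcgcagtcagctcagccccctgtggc
Id3: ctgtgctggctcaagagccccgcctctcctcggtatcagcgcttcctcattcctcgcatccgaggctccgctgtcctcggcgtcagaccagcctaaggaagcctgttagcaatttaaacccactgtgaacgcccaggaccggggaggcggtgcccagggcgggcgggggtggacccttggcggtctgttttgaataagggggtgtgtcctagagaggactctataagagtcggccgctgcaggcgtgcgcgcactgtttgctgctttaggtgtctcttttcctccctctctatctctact
Id4: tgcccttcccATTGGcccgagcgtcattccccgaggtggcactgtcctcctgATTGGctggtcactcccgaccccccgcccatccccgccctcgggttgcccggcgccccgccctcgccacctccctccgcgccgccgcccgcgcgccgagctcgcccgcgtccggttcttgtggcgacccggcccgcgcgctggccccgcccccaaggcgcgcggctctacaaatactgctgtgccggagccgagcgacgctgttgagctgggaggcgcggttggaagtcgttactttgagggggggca
Id4 holds CCAAT at 240 and 198 bases before its start site, Id2 at 159, 120 and 76 bases, and Id3 nowhere in the window, where 37.4% of all windows hold it. The Id4 window has a G and C content of 73.3% and 39 CpG, against medians of 52.7% and 7 over all windows. CANNTG, the E-box that bHLH factors bind, is in the Id2 window, is not in those of Id3 and Id4, and is in 72.3% of all windows.

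RefSeq windows were found for 8 of the 10 member genes, 10 windows in all. Ret and Bcl6b had no entry. Beside the motifs above, the member windows were searched on both strands for CCGGAA, a core of the sites that ETS factors such as ETV5 bind. It was found in 1 member window, that of Gfra1 at 156 bases before the start site, where 14.9% of all windows hold it. The Gfra1 window also holds an E-box at 90, 75 and 34 bases before the start site, and the one at 75 overlaps a CCAAT box at 73. The palindrome GGCGCC was in the windows of Id4 and of the upstream Etv5 start, where 11.9% of all windows hold it. Among the member windows, the TATA element was found in the upstream one of Gdnf alone.

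The 4 remaining members stood below the middle of the table, above 34.6% to 43.9% of all genes in the case column and 29.8% to 44.0% in the control column. Lhx1 (NM_008498; chromosome 11, 84519379 to 84525534), a LIM homeobox gene, was at 0.757 FPKM in the case column and 0.750 FPKM in the control column. Its row was tested (p = 0.982 per the authors' deposited table), while its interval of 0.420-fold to 2.43-fold had the highest upper bound of the 8 tested rows. T (NM_009309; chromosome 17, 8434423 to 8442496), the T-box gene brachyury, was at 0.516 FPKM in the case column and 0.552 FPKM in the control column. Eomes (NM_010136; chromosome 9, 118478189 to 118486132), another T-box gene, which marks a part of the GFRA1-positive spermatogonia in the mouse, was at 0.339 FPKM in the case column and 0.273 FPKM in the control column. Its other row, NM_001164789, was listed at 0 in the case column and at 4.34e-06 FPKM in the control column. Pax7 (NM_011039; chromosome 4, 139738081 to 139832968), a paired box gene, was at 0.206 FPKM in the case column and 0.103 FPKM in the control column. The rows of T, Eomes and Pax7 have the status NOTEST, so no interval is given for them, and the depth is unknown.

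Pax7 and Eomes are also genes of other cell types, and the defining markers of those types were low as well. Pax7 marks muscle satellite cells. Of the 10 skeletal muscle and satellite cell markers, 0 had a mean of at least 1 FPKM: Myf5 was listed at 0 in both columns, Myod1 was at 0.0629 FPKM in the case column and 0.0625 FPKM in the control column, and Myog at 0.1002 and 0.0532 FPKM. Myh8, a developmental myosin, was the 1 gene of the list with a tested row, at 0.868 and 0.682 FPKM (p = 0.506 per the authors' deposited table). The list summed to 2.48 FPKM in the case column and 2.30 FPKM in the control column. Eomes is a gene of NK and CD8 T lymphocytes, and the 12 lymphocyte markers summed to 3.81 and 3.73 FPKM. Cd3e was at 0.887 and 1.13 FPKM, Nkg7 at 0.252 and 0.257 FPKM, and Ncr1 at 0.223 FPKM in the case column and listed at 0 in the control column. The part of these cells in the Pax7 and Eomes values was not tested.

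Ret and Gfra1 are also expressed in peripheral nerve and its glia. Of the 10 nerve and glia markers, 5 had a mean of at least 1 FPKM. Of these 5, 4 were higher in the case column, where 60.8% of all genes analysed were higher. The list summed to 35.99 FPKM in the case column and 31.0 FPKM in the control column. Sox10, a glial transcription factor, was at 1.76 FPKM in the case column and 1.83 FPKM in the control column. Erbb3 was at 5.63 and 4.88 FPKM and S100b at 9.92 and 8.91 FPKM. Mbp, summed over its rows, had the highest difference among the 5 (0.71 on the log2(FPKM + 1) scale), at 4.29 and 2.23 FPKM. Its highest tested row was at 0.891 and 0.942 FPKM (p = 0.931 per the authors' deposited table). Bcl6b is also expressed in endothelium. Of the 11 endothelial markers analysed, 10 were higher in the case column, where the same 60.8% of all genes analysed were higher. The 12 endothelial markers summed to 65.1 FPKM in the case column and 55.3 FPKM in the control column, a ratio of 1.18 beside 1.25 for Bcl6b. Among them, Pecam1 was at 5.50 and 4.403 FPKM and Cdh5 at 16.2 and 14.05 FPKM. The endothelial genes with the smallest p were Eng at 9.76 and 7.73 FPKM, Robo4 at 3.14 and 2.28 FPKM and Kdr at 4.14 and 3.27 FPKM, with p = 0.130 for the highest tested row of Eng, 0.288 and 0.329 per the authors' deposited table. The part of endothelial or nerve cells in these values was not tested.

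Gdnf comes from somatic cells, so their markers stand beside it. Peritubular myoid markers were higher in the case column in 10 of 10 genes, where 60.8% of all genes analysed were higher, and summed to 701 FPKM in the case column and 624 FPKM in the control column, a ratio of 1.12. Acta2, smooth muscle actin, was at 318 and 274 FPKM, Myh11, smooth muscle myosin, at 44.5 and 39.6 FPKM, Tagln, transgelin, at 53.6 and 44.6 FPKM, and Smtn, smoothelin, at 10.1 and 7.62 FPKM. Sertoli cell markers summed to 4828 FPKM in the case column and 4862 FPKM in the control column, with 9 of 18 higher. Of the markers that define Sertoli cells, Sox9 was at 35.1 and 30.5 FPKM, Wt1 at 76.4 and 71.1 FPKM and Amh at 128 and 108 FPKM. Others of the list stood the other way: Rhox5, an X-linked homeobox gene, was at 8.90 FPKM in the case column and 19.3 FPKM in the control column (p = 0.0254 and q above 0.05 per the authors' deposited table), and Tsx at 6.27 and 12.7 FPKM (p = 0.0595 per the authors' deposited table). The sums of Sertoli markers are led by Clu and Aard, so they weigh those genes most. Leydig cell markers were higher in 10 of 11 genes, with Cyp11a1 at 45.7 and 32.4 FPKM, Hsd3b1 at 109 and 92.5 FPKM and Star at 9.49 and 8.27 FPKM. Hsd17b3, of testosterone synthesis, was at 38.7 and 24.6 FPKM (p = 0.0302 and q above 0.05 per the authors' deposited table). Whether the level of Gdnf follows the number of these cells was not tested.

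Germ cell markers are the frame for the other members. Undifferentiated spermatogonia markers had 17 of 24 genes higher in the case column (14 after median-of-ratios rescaling). Of all genes analysed, 60.8% were higher (50.1% after that rescaling). The markers had a median difference of log2(FPKM + 1) of 0.08, beside 0.03 over all genes analysed. The 7 others were lower. Their lowest differences were those of Utf1 (-0.39), at 1.71 FPKM in the case column and 2.56 FPKM in the control column, and Taf4b (-0.30), at 16.3 and 20.3 FPKM. Lin28a is the 1 gene of the list that passed the authors' test. Zbtb16, a transcription factor of spermatogonial progenitors, was at 16.8 FPKM in the case column and 14.9 FPKM in the control column, Sall4, of the same cells, at 10.6 and 10.2 FPKM, and Ddx4, a helicase of germ cells in general, at 72.6 and 72.8 FPKM. Differentiating spermatogonia markers had 7 of 10 genes lower (9 after rescaling), with a median of -0.13. Of all genes analysed, 39.2% were lower before rescaling. Kit, the receptor for stem cell factor on differentiating spermatogonia, was at 29.0 and 30.0 FPKM and Stra8, a gene of meiotic entry, at 68.1 and 86.3 FPKM. Sycp1 and Prdm9, of meiotic prophase, were at 38.5 and 59.1 FPKM and at 4.69 and 8.27 FPKM, with unadjusted p = 0.0102 and 0.0181 and q above 0.05 in the authors' deposited table. On the log2(FPKM + 1) scale the differences of Gfra1, Ret and Etv5 were -0.03, 0.04 and 0.04, beside 0.05 for Sall4 and 0.16 for Zbtb16.

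The other members of the ligand and receptor families were mostly low. Of 9 such genes, 3 had a mean of at least 1 FPKM. Nrtn, the ligand neurturin, was at 3.25 FPKM in the case column and 2.93 FPKM in the control column (p = 0.805), and Gfra3, the artemin co-receptor, was at 1.27 and 1.51 FPKM (p = 0.676), as the authors' deposited table lists them. Gfra4, the persephin co-receptor, was at 2.42 and 1.98 FPKM (p = 0.944 for its highest tested row in the authors' deposited table). Gfra2, the neurturin co-receptor, was at 0.625 and 0.563 FPKM, the neural adhesion molecule gene Ncam1, an alternative GDNF receptor, at 0.865 and 0.856 FPKM, and Gfral was listed at 0 in both columns. Gfra1 was the GFRA family gene with the highest FPKM in each column, and Gdnf the GDNF family ligand with the highest.

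**Figure D4:**
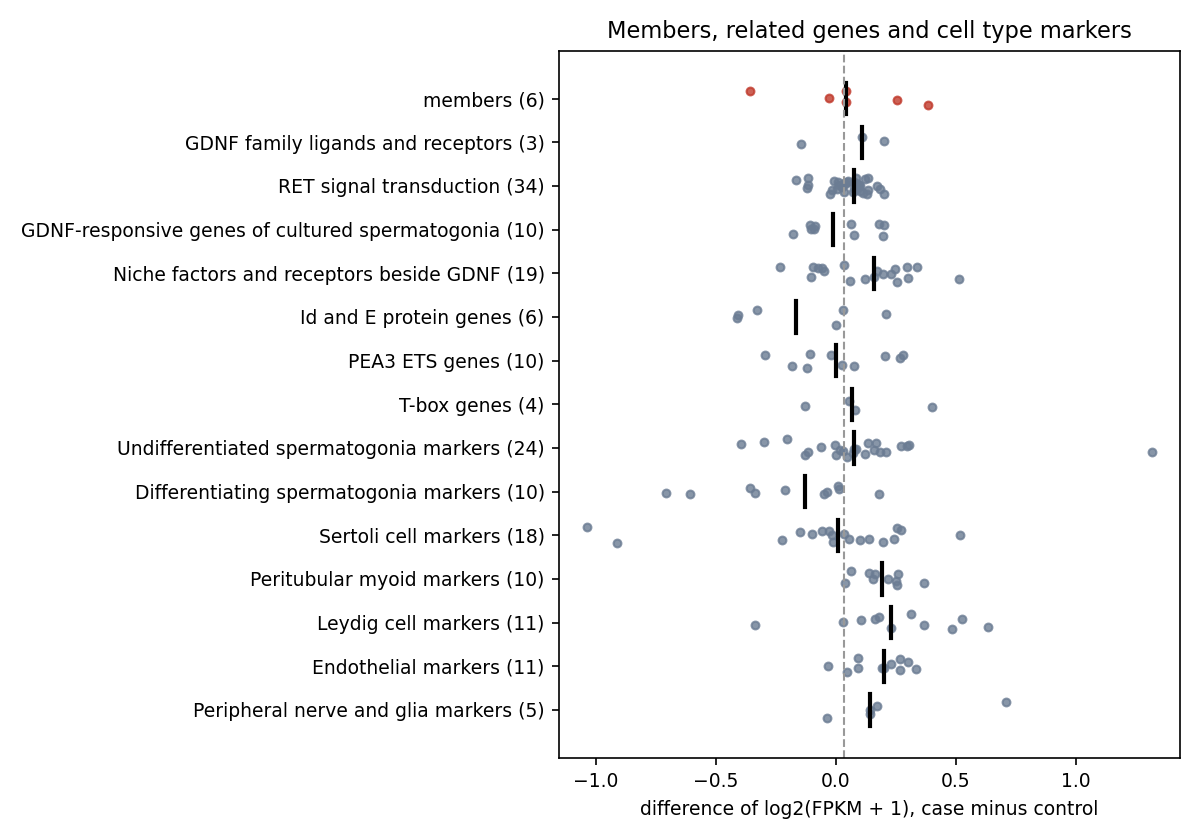
Difference of log2(FPKM + 1), case minus control, for each gene with a mean of at least 1 FPKM (points) in the members and 14 other lists, with the list median (black bar), the number of genes in parentheses and the median of all genes (dashed line, 0.03). RET signalling genes lie close around the dashed line, and the lone point at 1.32 is Lin28a.

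Genes that carry the RET signal inside the cell were close to level. Of 36 such genes, 34 had a mean of at least 1 FPKM, 27 of them higher and 7 lower in the case column (22 and 12 after median-of-ratios rescaling). Of all genes analysed, 60.8% were higher (50.1% after that rescaling). Of the 31 with an authors' p-value, 0 had p under 0.05, where 1.28% of all tested rows did. Their differences of log2(FPKM + 1) ran from -0.17 to 0.20 with a median of 0.07. Those with the smallest p were Sos1, a RAS activator, at 10.8 FPKM in the case column and 9.44 FPKM in the control column, Mtor, a growth kinase, at 20.4 and 23.0 FPKM, and Ptpn11, the phosphatase SHP2, at 34.9 and 31.7 FPKM, with p = 0.441, 0.465 and 0.542 in the authors' deposited table.

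Genes reported to respond to GDNF in cultured spermatogonia, beside the members, were split evenly, with 5 higher and 5 lower among the 10 analysed and a median of -0.01. Nanos2, an RNA-binding protein that keeps male germ cells undifferentiated, was at 0.540 FPKM in the case column and 1.09 FPKM in the control column (p = 0.224 in the authors' deposited table). Its mean was below 1 FPKM, so it is not among the 10. Shisa6, a marker of primitive spermatogonia in the mouse, was at 3.72 and 3.11 FPKM (p = 0.423), and Tec, a cytoplasmic tyrosine kinase, at 2.23 and 2.43 FPKM summed over its rows (p = 0.404 for its highest tested row), all in the authors' deposited table. The relatives of Etv5 and the feedback inhibitors that ERK signalling induces were split as well, with 5 of 10 higher (4 after either rescaling) and a median of 0.00 (0.0026). Among these, Etv1 was at 4.10 and 3.20 FPKM (p = 0.291), Spry1 at 9.03 and 7.34 FPKM (p = 0.392) and Spry4 at 2.05 and 1.65 FPKM (p = 0.483), all from the authors' deposited table.

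Of the T-box genes other than T and Eomes, 4 of 12 had a mean of at least 1 FPKM. Tbx2 was at 5.49 FPKM in the case column and 3.91 FPKM in the control column (p = 0.182), Tbx3 at 1.12 and 1.04 FPKM (p = 0.593 for its highest tested row) and Tbx6 at 0.502 and 0.778 FPKM (p = 0.424), all from the authors' deposited table. Niche factors and receptors beside GDNF had 13 of 19 genes higher in the case column and a median of 0.16, where 60.8% of all genes analysed were higher. The 6 others were lower, with the lowest difference for Fgfr3 (-0.23), at 2.60 FPKM in the case column and 3.23 FPKM in the control column. The highest difference was that of Vegfa (0.51), at 7.53 and 4.97 FPKM, for which no completed test was listed. The niche genes with the smallest p were Csf1, a growth factor that acts on macrophages and is also linked to stem cell renewal in the mouse testis, at 4.07 and 3.005 FPKM (p = 0.179 for its highest tested row), Wnt6, a Sertoli cell ligand, at 44.5 and 36.03 FPKM (p = 0.234), and Igf1 at 19.2 and 15.4 FPKM (p = 0.267 for its highest tested row) in the authors' deposited table. In the lists of RET signalling, GDNF-responsive, ETS and feedback, T-box and niche genes, the highest tested row of a gene had p under 0.05 in 0 cases and q under 0.05 in 0 cases. Of all 13629 tested rows, 1.28% had p under 0.05 and 0.0514% had q under 0.05, so these counts of 0 lie near the shares over all rows.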

How the data were processed

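Testis mRNA of 3 knockout and 3 wild-type libraries was represented by a deposited table with 1 row per RefSeq accession. Reads were aligned with TopHat2 2.0.9 to mm10, per the submitters' processing notes. Per the file headers, the deposited values are an FPKM for each group, a log2 ratio, a test statistic score, a p-value and a q-value. The header gives the ratio no direction, and it was read as control over case from the values. Neither the program that made them nor how libraries were pooled is stated. The spread that the p-values measure is therefore unknown and may be technical.

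Here, accessions were matched to symbols in a RefSeq table of GRCm38.p6 (29071 of 29660, 98.0%), FPKM was summed per gene, and log2(FPKM + 1) was compared between the columns for genes with a mean of at least 1 FPKM, with Python 3.11.15 and pandas 2.3.3. No test over libraries was possible; calls are the authors', at q under 0.05. Starts were read as counting from 0 and raised by 1. The calculations were tested on simulated data. Members and 16 other lists were chosen with earlier results of these data known. Named were all members, and from each list the genes with p under 0.05, or else up to 3 with the smallest p of the highest tested row, plus defining markers, some of which are not reported here; Gfra2, Gfral, Tcf3, Tcf4 and Tcf12, Clu, Aard, Tsx and Gfra4 were named after their values were seen. Sequences are from RefSeq, GRCm38.p6.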

Additional observations from a re-analysis of the deposited data

How the results depend on the processing

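Of 50 member differences under alternatives, 47 kept their sign and 47 moved by under 0.1 on the log2 scale. The sign changes were those of Lhx1 (-0.0097 and -0.0087) under both rescalings and Etv5 (-0.0030) with quantile normalization. The 3 that moved more were Eomes (0.24) and Pax7 (0.59) with a pseudocount of 0.1, and Ret (0.17) by its highest row. The number of members higher in the case column, 4, became 7 with no filter on low values. The number of member rows called stayed 0 at q under 0.10, at an unadjusted p under 0.05 and with p-values adjusted again over rows at a mean of 1 FPKM or more or over every row. Of 109 list medians, 102 moved by under 0.1. The others were GDNF family ligands and receptors by highest row (-0.031, from 0.11), GDNF-responsive genes at a mean of at least 5 FPKM (0.18, from -0.01), T and NK lymphocyte markers, which rest on Cd3e, with a pseudocount of 0.1 (-0.32) and with no filter (0.00026, from -0.18), nerve and glia markers with no filter (0.026, from 0.14), and, without rows of status FAIL, Id and E protein genes (-0.41, from -0.16) and differentiating spermatogonia markers (-0.27, from -0.13), where fewer genes remain. Other causes were not tested. Median-of-ratios scaling divided the case column by 1.03 and put 50.1% of genes higher, against 60.8%. No paired analysis was possible because the table holds no values per library, which also kept the settings without each replicate from being run. Depth is unknown.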
